A study of Mus musculus with 23 samples.

Results

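The 10 genes described here, Mrc1, Stab1, Pf4, F13a1, Cd163, Lyve1, Cbr2, Cd209f, Ms4a7 and Fcna, mark the macrophages at the borders of the brain. They were taken by symbol from a list of perivascular and meningeal macrophage genes, a rule that uses no measured value but was set with earlier results of these data known, and all 10 were among the 22310 named genes of the count table. Brain RNA from C57BL/6J mice was sequenced in 23 libraries to ask what 2 inhibitors of the colony-stimulating factor 1 receptor (CSF1R) do to the transcriptome, and whether a receptor mutation prevents it. Mice carried Csf1R-G793A, a change in that receptor (G793A mice), or were wild type (WT). Their chow held PLX3397 at 290 mg/kg, PLX5622 at 1200 mg/kg or no inhibitor (control), and was given for 14 days. There were 4 libraries of G793A mice on PLX3397, 4 of WT mice on PLX3397, 4 of G793A mice on PLX5622, 4 of WT mice on PLX5622, 4 of G793A mice on control chow and 3 of WT mice on control chow. The labels give no brain region, sex, age or zygosity of the mutation, and do not state whether libraries stand for separate mice. The p-values therefore cover the variation among libraries, which may be partly technical.

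CSF1R is the receptor tyrosine kinase through which the ligands CSF1 and IL-34 keep microglia and many tissue macrophages alive. Border-associated macrophages sit outside the brain parenchyma, around its vessels and in the meninges and choroid plexus, while microglia sit within it. They are known for scavenger and lectin receptors with which they take up proteins, lipids and pathogens from the fluids at these borders. In bulk tissue, fewer of these cells and less RNA per cell cannot be told apart.

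Each library held 26.3 to 48.2 M (mega-counts) of estimated counts. Levels are given as CPM, that is counts-per-million of the library size scaled by the trimmed mean of M-values (TMM). A gene was tested where enough libraries exceeded 0.285 CPM, which 16209 genes did, and all 10 markers did. Pf4, Cd209f, Ms4a7 and Fcna were over that level in 0 of the 8 libraries of WT mice on an inhibitor, so they entered the test only through the other groups. A gene passed at an adjusted p under 0.05 in edgeR's quasi-likelihood test, adjusted by Benjamini-Hochberg over all genes tested, and log2 fold changes carry their standard error (SE). Replicate 1 of WT mice on PLX5622 held 30.8 CPM of the cerebellar gene Cbln3 and 66.1 CPM of the pituitary hormone gene Prl, and replicate 2 of G793A mice on PLX5622 held 221 CPM of Cbln3. Results resting on these 2 libraries were also computed without them.

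Macrophage promoters are known for sites of the factor PU.1, whose core GAGGAA reads TTCCTC on the other strand. RefSeq (GRCm38.p6) gave a start for 9 of the 10 markers, not Lyve1, and the 250 bases before each start were searched on both strands. These 9 genes have 11 windows, of which 6 held GAGGAA (1 each of Mrc1, Stab1, Pf4, F13a1, Cbr2 and Fcna), and 23.3% of all 32851 windows did. The half-site TGCTGA of MAF factors, TCAGCA on the other strand, stood in 2 of the 11, of Stab1 and Fcna, and in 16.1% of all windows. The 4 windows shown belong to Mrc1 (3 matches, chr2:14229164-14229413, plus strand), to Stab1 (1 match, chr14:31168642-31168891, minus strand), the marker of highest level, to Pf4 (1 match, chr5:90772185-90772434, plus strand) and to Cd163 (0 matches, chr6:124304401-124304650, plus strand), the marker that passed on neither inhibitor. Each is printed 5′ to 3′ along its gene, ending at the base before the start, with GAGGAA or TTCCTC in capitals. A match describes letters and shows no binding.
Mrc1: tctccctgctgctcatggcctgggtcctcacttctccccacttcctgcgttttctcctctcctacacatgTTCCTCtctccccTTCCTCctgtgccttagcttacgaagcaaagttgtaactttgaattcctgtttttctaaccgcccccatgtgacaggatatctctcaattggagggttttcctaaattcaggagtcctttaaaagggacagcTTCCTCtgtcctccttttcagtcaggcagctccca
Stab1: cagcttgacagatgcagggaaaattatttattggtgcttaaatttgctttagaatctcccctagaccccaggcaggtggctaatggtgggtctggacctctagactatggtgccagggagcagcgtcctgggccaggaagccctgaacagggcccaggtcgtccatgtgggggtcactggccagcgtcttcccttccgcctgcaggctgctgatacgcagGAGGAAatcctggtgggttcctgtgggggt
Pf4: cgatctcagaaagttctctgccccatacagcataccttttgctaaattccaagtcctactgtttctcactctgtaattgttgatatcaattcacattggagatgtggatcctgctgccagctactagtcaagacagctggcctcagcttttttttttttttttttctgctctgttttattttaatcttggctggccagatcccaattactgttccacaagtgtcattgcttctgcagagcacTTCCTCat
Cd163: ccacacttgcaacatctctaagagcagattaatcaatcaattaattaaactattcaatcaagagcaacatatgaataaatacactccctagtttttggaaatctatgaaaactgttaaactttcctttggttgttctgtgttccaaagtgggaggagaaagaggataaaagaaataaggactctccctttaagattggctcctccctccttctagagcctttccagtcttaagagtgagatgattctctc

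Most of these markers were far lower in WT mice on either inhibitor than in WT controls. On PLX3397, 9 of the 10 markers were lower than in WT mice on control chow and 0 were higher, where 1.49% of all genes tested were lower and 0.037% higher. Their median log2 fold change was −2.26, against 0.01 over all genes. On PLX5622, 7 of the 10 were lower and 0 higher, where 1.59% of all genes were lower and 0.074% higher, and the median was −2.13 against 0.01. Since 4 of the markers entered the test only through the other groups, the counts were also taken with no filter. They were 8 of 10 on PLX3397 (of 241 genes called) and 7 of 10 on PLX5622 (of 262). The libraries of WT mice on PLX3397 lay below all 3 of WT mice on control chow for 10 of the 10 markers, as 6.12% of all genes did. On PLX5622 the same held for 10 of the 10, against 5.26% of all genes. As means, the markers stood at 5.86% to 56.8% of the WT control level in WT mice on PLX3397 (median 20.9%) and at 1.41% to 64.7% on PLX5622 (median 22.7%). The 2 inhibitors were given at different doses, so their values stand side by side and are not compared.

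In G793A mice most of the same markers stayed much nearer to the level of controls. Cd163 was an exception, at 67.1% of the WT control mean in G793A mice on PLX5622 and 64.7% in WT mice on PLX5622. Against WT mice on control chow, 0 of 10 passed in G793A mice on PLX3397, where 0.00617% of all genes were lower, and 0 of 10 in G793A mice on PLX5622, where 0% were. Their medians were −0.69 and −0.57. At an unadjusted p under 0.05, 6 markers were lower in G793A mice on PLX3397, where 7.24% of all genes differed at that level, and 5 on PLX5622, where 6.76% did, so these tests do not show that the levels were equal. Without overlap, 4 markers were lower in G793A mice on PLX3397 (Mrc1, Stab1, F13a1 and Lyve1), against 4.11% of all genes, and 5 on PLX5622 (Mrc1, Stab1, F13a1, Cd163 and Cd209f), against 3.86%. DESeq2 called 2 markers (Stab1 and F13a1) of 30 genes on PLX3397 and 1 (Stab1) of 8 genes on PLX5622. The only marker limma-voom called was Stab1, of 3 genes on PLX3397 and of 1 gene on PLX5622. As means, the markers stood at 46.4% to 128% of the WT control level in G793A mice on PLX3397 (median 60.9%), at 46.9% to 93.0% on PLX5622 (median 67.2%), and at 69.2% to 110% in G793A mice on control chow (median 80.3%).

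**Figure D1:**
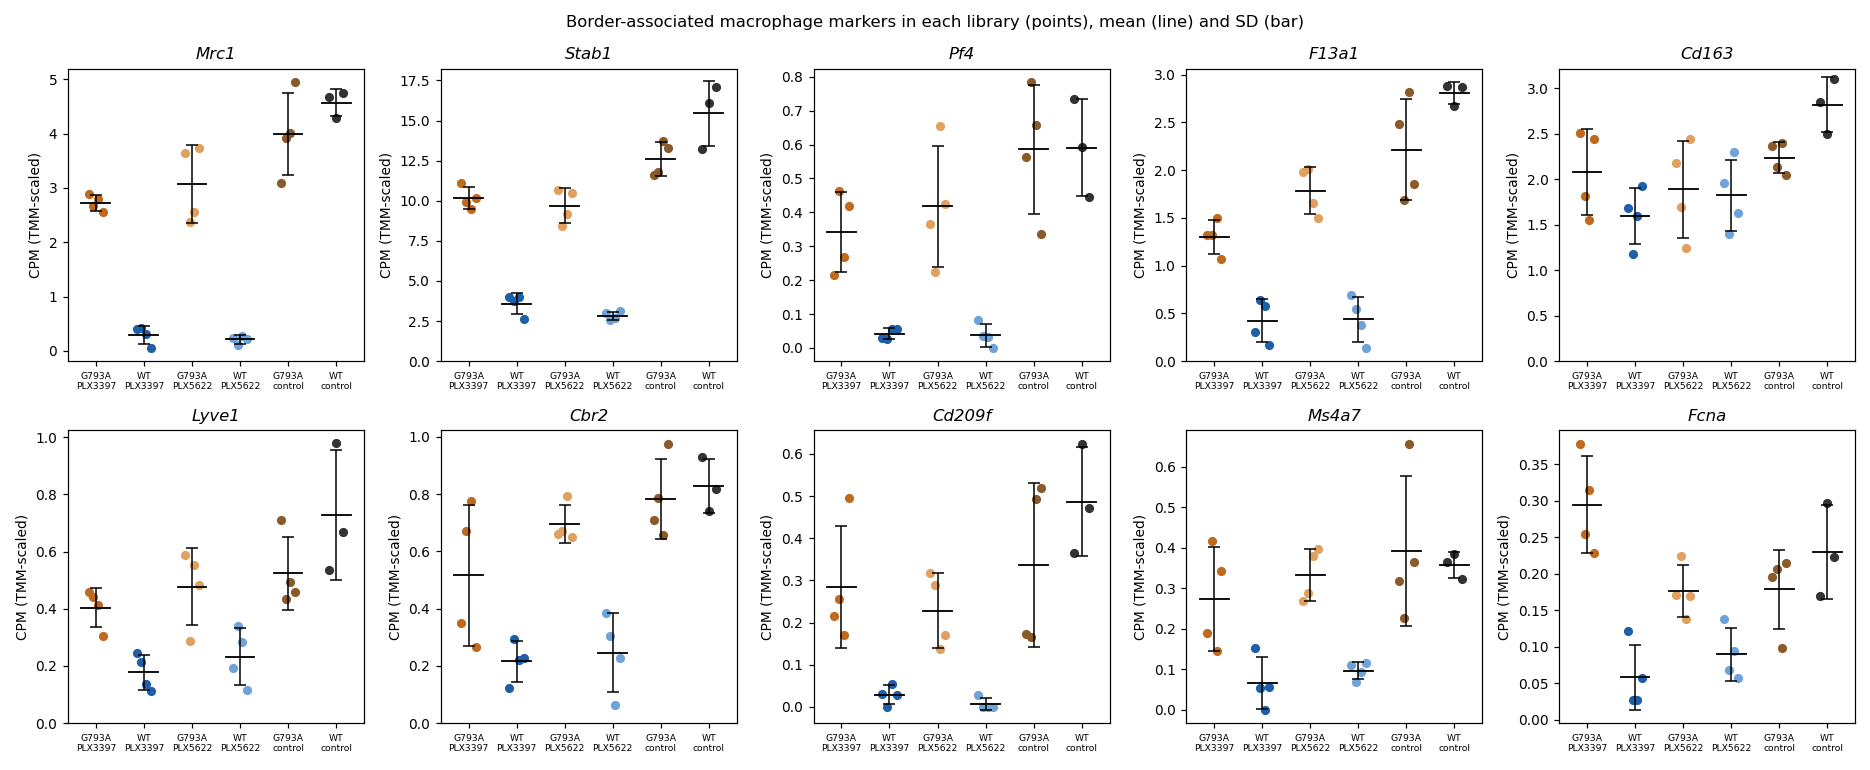
Level of each of the 10 markers in CPM (vertical axis, 1 panel a gene) in every library (points) of the 6 groups, with group mean (line) and SD (bar). Libraries of WT mice on an inhibitor lie lowest in most panels, while in the Cd163 panel they share the range of G793A libraries on an inhibitor.

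The first group of markers are receptors for uptake. Mrc1 encodes the mannose receptor CD206, an endocytic lectin used to define border macrophages. Its level was 2.89, 2.67, 2.79 and 2.55 CPM in G793A mice on PLX3397, against 0.397, 0.429, 0.304 and 0.0566 CPM in WT mice on PLX3397. On PLX5622 it was 3.65, 2.37, 2.55 and 3.74 CPM in G793A mice, against 0.248, 0.102, 0.283 and 0.229 CPM in WT mice. On control chow it was 3.09, 3.91, 4.01 and 4.95 CPM in G793A mice, against 4.68, 4.28 and 4.75 CPM in WT mice. Every library of WT mice on an inhibitor was thus below every other library, and the 2 control groups overlapped. Against WT control, the log2 fold change of Mrc1 was −3.93 ± 0.29 in WT mice on PLX3397 (adjusted p = 5.36e-09) and −4.37 ± 0.30 on PLX5622 (adjusted p = 8.45e-10). Of the counted reads, WT mice on PLX3397 had 6.47% of the WT control rate (95% interval 4.61 to 8.88, for counting error only), and those on PLX5622 had 4.78% (3.17 to 6.95).

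Stab1 encodes stabilin-1, a scavenger receptor, and it had the most counts of the 10 markers. Its level was 11.1, 9.90, 9.50 and 10.2 CPM in G793A mice on PLX3397, against 4.00, 3.76, 3.98 and 2.63 CPM in WT mice on PLX3397. On PLX5622 it was 10.7, 8.44, 9.17 and 10.5 CPM in G793A mice, against 3.00, 2.55, 2.71 and 3.10 CPM in WT mice. On control chow it was 11.6, 11.8, 13.7 and 13.3 CPM in G793A mice, against 13.2, 16.1 and 17.1 CPM in WT mice. The order was the same as for Mrc1 in that no library of WT mice on an inhibitor reached any other, yet Stab1 kept a larger share of its control level. It fell by 2.10 ± 0.12 on the log2 scale in WT mice on PLX3397 (adjusted p = 1.97e-10) and by 2.44 ± 0.13 on PLX5622 (adjusted p = 1.41e-11). G793A libraries on PLX3397 and on PLX5622 all lay below both control groups for Stab1. Against WT control its log2 fold changes there were −0.60 ± 0.12 on PLX3397 (adjusted p = 0.117) and −0.67 ± 0.12 on PLX5622 (adjusted p = 0.118), and against G793A control −0.30 ± 0.11 (adjusted p = 0.364) and −0.37 ± 0.11 (adjusted p = 0.154). None of these 4 passed in edgeR. The 2 against WT control passed in DESeq2 (adjusted p = 0.00233 on PLX3397 and 0.000628 on PLX5622) and in limma-voom (adjusted p = 0.0331 and 0.0285). In edgeR, leaving out replicate 4 of WT mice on PLX3397 let both pass, leaving out replicate 1 of WT controls let the PLX5622 one pass, and leaving out replicate 2 of G793A controls let the PLX5622 one against G793A control pass, with Stab1 log2 fold changes from −0.71 to −0.53, from −0.77 to −0.59 and from −0.42 to −0.32 over all 23 omissions.

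Cd163, the scavenger receptor for haptoglobin-haemoglobin complexes, was the exception. Its level was 2.51, 1.81, 1.55 and 2.44 CPM in G793A mice on PLX3397, against 1.68, 1.18, 1.60 and 1.92 CPM in WT mice on PLX3397. PLX5622 libraries had 2.18, 1.69, 1.24 and 2.44 CPM in G793A mice, against 1.96, 1.40, 2.30 and 1.63 CPM in WT mice. On control chow it was 2.36, 2.13, 2.40 and 2.05 CPM in G793A mice, against 2.85, 2.50 and 3.10 CPM in WT mice. Among the other 5 groups only replicate 1 of G793A mice on PLX3397 exceeded the lowest WT control library, and the genotypes overlapped on each inhibitor. Against WT control, the log2 fold change of Cd163 was −0.82 ± 0.21 in WT mice on PLX3397 (adjusted p = 0.0564) and −0.63 ± 0.21 on PLX5622 (adjusted p = 0.248), neither past the threshold. The first passed in DESeq2 (adjusted p = 0.0188), in limma-voom (0.0357), on the deposited variance-stabilised values (0.0462), with a replicate block (0.0279), with a length trend removed (0.0481), and in edgeR without 1 of 4 libraries (replicate 3 or 4 of G793A mice on PLX5622, replicate 3 of G793A mice on PLX3397, or replicate 2 of WT mice on PLX5622), at −0.92 to −0.70 over all omissions. Between genotypes Cd163 differed by 0.37 ± 0.20 on PLX3397 (adjusted p = 0.68) and 0.06 ± 0.21 on PLX5622 (adjusted p = 0.993).

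Lyve1 encodes a hyaluronan receptor that lymphatic endothelium also makes. It was 0.458, 0.441, 0.412 and 0.305 CPM in G793A mice on PLX3397, against 0.244, 0.215, 0.138 and 0.113 CPM in WT mice on PLX3397. With PLX5622, Lyve1 was 0.587, 0.288, 0.552 and 0.482 CPM in G793A mice, against 0.193, 0.340, 0.283 and 0.115 CPM in WT mice. Controls had 0.711, 0.434, 0.492 and 0.458 CPM in G793A mice, against 0.536, 0.980 and 0.669 CPM in WT mice. The genotypes were apart on PLX3397 and overlapped on PLX5622. Lyve1 fell by 2.02 ± 0.35 in WT mice on PLX3397 (adjusted p = 0.00109) and by 1.65 ± 0.35 on PLX5622 (adjusted p = 0.00685). The PLX5622 call was lost without replicate 2 of WT controls (adjusted p = 0.0847), its highest library, and with the compared groups alone (0.0697). On the deposited variance-stabilised values neither Lyve1 difference passed (adjusted p = 0.0728 on PLX3397 and 0.695 on PLX5622). Of 6 lymphatic endothelial genes, 4 were tested and 0 passed in either WT comparison, and their summed level was 142 to 170 CPM in WT mice on PLX3397, 136 to 172 CPM on PLX5622 and 112 to 154 CPM in WT controls. Prox1, which defines lymphatic endothelium but which neurons also express, averaged 39.0 ± 3.84 CPM in WT mice on PLX3397 (SD, n = 4) and 39.3 ± 6.5 CPM in WT controls (SD, n = 3). The list sum therefore does not stand for lymphatic endothelium alone, and the part of that cell type in the Lyve1 level was not tested.

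Cd209f is a mouse lectin gene of the DC-SIGN family, whose members lie close together and resemble each other, so estimated counts may be shared among them. It had 39 counts in all in G793A mice on PLX3397, against 4 counts in WT mice on PLX3397. On PLX5622 it had 32 counts in G793A mice, against 1 count in WT mice, which came from replicate 1. WT controls held 53 counts at 0.366, 0.624 and 0.471 CPM, and G793A controls were split, with 0.172, 0.165, 0.492 and 0.519 CPM. The gene was close to undetected in WT mice on either inhibitor. Relative to library size, WT mice on PLX3397 had 5.84% of the WT control rate (95% interval 1.54 to 15.9) and WT mice on PLX5622 had 1.56% (0.0388 to 9.08). Both differences passed (Cd209f adjusted p = 0.000426 on PLX3397 and 7.26e-05 on PLX5622).

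Of the secreted proteins, Pf4 encodes a chemokine that platelets and megakaryocytes also make. Its level was 0.216, 0.464, 0.267 and 0.419 CPM in G793A mice on PLX3397, against 0.0306, 0.0268, 0.0553 and 0.0566 CPM in WT mice on PLX3397. PLX5622 libraries held Pf4 at 0.367, 0.224, 0.655 and 0.425 CPM in G793A mice, against 0.0826, 0.0340, 0.0315 and 0 CPM in WT mice. Controls had 0.564, 0.785, 0.657 and 0.336 CPM in G793A mice, against 0.733, 0.594 and 0.446 CPM in WT mice. Every library of WT mice on an inhibitor lay below the lowest of the others. WT mice on PLX3397 held 6 counts of Pf4 in all, 7.26% of the WT control rate (95% interval 2.57 to 16.7), and those on PLX5622 held 5 counts, 6.47% (2.03 to 15.9). The Pf4 log2 fold changes were −3.69 ± 0.52 (adjusted p = 6.22e-05) and −3.84 ± 0.54 (adjusted p = 4.25e-05). Of 7 platelet genes, 2 were tested and 0 passed in either WT comparison, with a summed level of 1.96 to 2.66 CPM in WT mice on PLX3397, 2.18 to 3.02 CPM on PLX5622 and 2.47 to 3.07 CPM in WT controls. Ppbp, which defines platelets, was near 0, at 0.0496 ± 0.0477 CPM in WT mice on PLX3397 (SD, n = 4) and 0.0363 ± 0.0318 CPM in WT controls (SD, n = 3).

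F13a1 encodes the catalytic A subunit of coagulation factor XIII, a transglutaminase. Its level was 1.32, 1.32, 1.50 and 1.07 CPM in G793A mice on PLX3397, against 0.306, 0.644, 0.581 and 0.170 CPM in WT mice on PLX3397. On PLX5622 it was 1.98, 2.01, 1.66 and 1.50 CPM in G793A mice, against 0.689, 0.545, 0.378 and 0.143 CPM in WT mice. On control chow it was 2.48, 1.69, 2.82 and 1.86 CPM in G793A mice, against 2.88, 2.67 and 2.87 CPM in WT mice. The genotypes did not overlap on either inhibitor, and G793A mice on PLX3397 also lay below both control groups. F13a1 fell by 2.70 ± 0.33 in WT mice on PLX3397 (adjusted p = 6.55e-06) and by 2.67 ± 0.33 on PLX5622 (adjusted p = 5.97e-06). In G793A mice on PLX3397 it stood at −1.10 ± 0.29 against WT control (adjusted p = 0.388 in edgeR, 0.0404 in DESeq2) and at −0.75 ± 0.28 against G793A control (adjusted p = 0.364).

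Fcna, which encodes the complement-activating lectin ficolin A, had the lowest level of the 10 markers in WT controls. It was 0.378, 0.255, 0.315 and 0.229 CPM in G793A mice on PLX3397, against 0.122, 0.0268, 0.0276 and 0.0566 CPM in WT mice on PLX3397. With PLX5622, Fcna was 0.171, 0.224, 0.138 and 0.170 CPM in G793A mice, against 0.138, 0.0681, 0.0944 and 0.0573 CPM in WT mice. Controls had 0.196, 0.207, 0.0985 and 0.214 CPM in G793A mice, against 0.169, 0.297 and 0.223 CPM in WT mice. G793A mice on PLX3397 thus had the highest mean of Fcna and lay wholly above G793A controls, the reverse of Mrc1, Stab1 and F13a1. That difference of 0.69 ± 0.35 did not pass (adjusted p = 0.442). In WT mice Fcna fell by 1.95 ± 0.48 on PLX3397 (adjusted p = 0.0332), and on PLX5622 it stood at −1.31 ± 0.44 (adjusted p = 0.243). The PLX3397 call did not hold in DESeq2 (adjusted p = 0.154), without a filter (0.055) or with a replicate block (0.06), nor without replicate 2, 3 or 4 of WT mice on PLX3397 or replicate 2 or 3 of WT controls (Fcna adjusted p up to 0.168, log2 fold change −2.54 to −1.71).

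Cbr2 encodes a carbonyl reductase and Ms4a7 a membrane protein that macrophages at the borders carry and microglia largely lack. Cbr2 was 0.351, 0.672, 0.775 and 0.267 CPM in G793A mice on PLX3397, against 0.122, 0.295, 0.221 and 0.226 CPM in WT mice on PLX3397. On PLX5622 it was 0.661, 0.671, 0.793 and 0.652 CPM in G793A mice, against 0.386, 0.306, 0.0629 and 0.229 CPM in WT mice. The genotypes overlapped on PLX3397, through replicate 4 of G793A mice, and were apart on PLX5622. Against WT controls at 0.930, 0.743 and 0.817 CPM, Cbr2 fell by 1.91 ± 0.38 in WT mice on PLX3397 (adjusted p = 0.00444) and by 1.73 ± 0.38 on PLX5622 (adjusted p = 0.00992). The PLX5622 call was lost without replicate 1 of WT controls (adjusted p = 0.0576) and with the compared groups alone (0.0619).

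Ms4a7 was 0.189, 0.417, 0.145 and 0.343 CPM in G793A mice on PLX3397, against 0.153, 0.0537, 0 and 0.0566 CPM in WT mice on PLX3397. PLX5622 libraries had 0.269, 0.288, 0.379 and 0.397 CPM in G793A mice, against 0.11, 0.0681, 0.0944 and 0.115 CPM in WT mice. WT controls, at 0.366, 0.386 and 0.322 CPM, lay within the range of G793A controls, at 0.319, 0.227, 0.657 and 0.366 CPM. Ms4a7 fell by 2.42 ± 0.55 in WT mice on PLX3397 (adjusted p = 0.0162), and on PLX5622 it stood at −1.83 ± 0.51 (adjusted p = 0.0836). The first call was lost with the compared groups alone (adjusted p = 0.0917) and without replicate 2, 3 or 4 of WT mice on PLX3397 or replicate 1 or 2 of WT controls (up to 0.0608). The second was gained without replicate 3 of WT mice on PLX3397. Over all 23 omissions the Ms4a7 log2 fold changes ran from −3.17 to −2.01 and from −1.92 to −1.71.

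**Figure D2:**
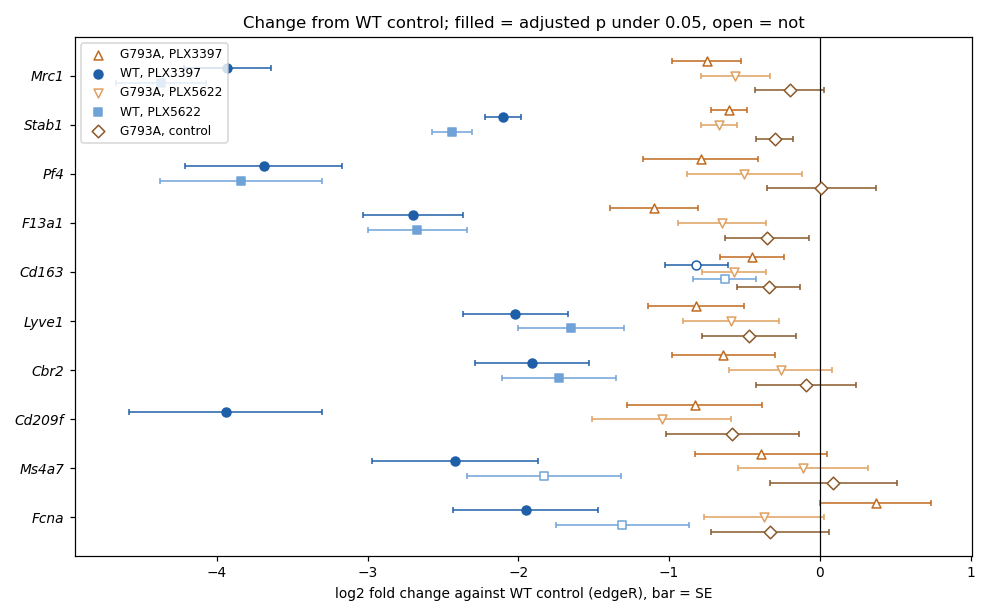
Log2 fold change of each marker against WT control (horizontal axis, bar = SE, edgeR) in the other 5 groups, filled where the adjusted p is under 0.05. WT mice on an inhibitor stand farthest left for every marker, by the least for Cd163, and the G793A groups hold only open symbols; Cd209f in WT mice on PLX5622 is left out because it rests on 1 count.

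The order of group means was much alike across markers. The 2 groups of WT mice on an inhibitor were lowest for 10 of the 10 markers, and their libraries overlapped each other for each of them. For 5 of the 10 markers (Mrc1, Stab1, Pf4, F13a1 and Cd209f) every library of these 2 groups lay below every library of the other 4. For Cd163, Lyve1, Cbr2, Ms4a7 and Fcna some library of another group reached into their range. Among the other 4 groups, those next to each other in order of mean overlapped, except that G793A mice on PLX3397 lay below G793A controls for Stab1 and that G793A controls lay below WT controls for Cd163. WT controls had the highest mean for 8 of the 10 markers, with G793A controls highest for Ms4a7 and G793A mice on PLX3397 highest for Fcna.

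Per length of the longest coding transcript, Stab1 had the highest level in WT controls, at 1.93 ± 0.255 CPM per kb (SD, n = 3). Pf4 followed at 1.01 ± 0.244, Mrc1 at 0.851 ± 0.0477, Cbr2 at 0.748 ± 0.0851, F13a1 at 0.710 ± 0.0293 and Cd163 at 0.633 ± 0.0679 CPM per kb. Cd209f stood at 0.411 ± 0.109, Lyve1 at 0.252 ± 0.0789, Ms4a7 at 0.227 ± 0.0209 and Fcna at 0.167 ± 0.0468 CPM per kb. In WT mice on PLX3397, Cd163 at 0.359 ± 0.0696 CPM per kb stood above Mrc1 at 0.0552 ± 0.0314 CPM per kb (SD, n = 4), while in WT controls Mrc1 stood above Cd163.

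The mutation without inhibitor moved no marker past the threshold. In G793A mice on control chow 0 of 10 markers passed against WT mice on control chow, where 0% of all genes passed in edgeR and 1803 genes (11.1%) had an unadjusted p under 0.05, 1 of them a marker (Stab1, −0.30 ± 0.12, unadjusted p = 0.0164, adjusted p = 0.364). DESeq2 and limma-voom also called 0 markers, and 0 genes. Without replicate 2 of G793A controls edgeR called 375 genes, 0 of them markers. The median log2 fold change of the markers was −0.31 against −0.01 over all genes, and 8 of the 10 were below 0, as were 51.7% of all genes. Only Cd163 had its 4 G793A control libraries wholly below WT controls, as 2.91% of all genes did.

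Set against their own controls, G793A mice on PLX3397 had 0 of 10 markers past the threshold, where 0.00617% of all genes were lower, and 4 at an unadjusted p under 0.05 (F13a1, Mrc1, Pf4 and Stab1), as were 11.7% of all genes. The median was −0.42. Without overlap, 3 markers were lower (Mrc1, Stab1 and F13a1), against 2.12% of all genes, and 1 was higher (Fcna), against 1.92%. G793A mice on PLX5622 had 0 of 10 past the threshold, where 0% of all genes passed, and 1 at an unadjusted p under 0.05 (Stab1), as were 16.3% of all genes. The median was −0.26. Only Stab1 was lower there without overlap, against 2.83% of all genes. DESeq2 called 0 markers in these 2 comparisons, of 28 genes called on PLX3397 and 343 on PLX5622, and limma-voom called 0 markers, of 1 gene on PLX3397 and 0 on PLX5622. These comparisons share the G793A control libraries.

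Between genotypes on the same inhibitor, 6 of the 10 markers were higher in G793A mice on PLX3397 than in WT mice on PLX3397, where 0.932% of all genes were higher. They were Mrc1 (3.18 ± 0.28, adjusted p = 2.79e-07), Stab1 (1.50 ± 0.12, adjusted p = 1e-07), Pf4 (2.90 ± 0.53, adjusted p = 0.00269), F13a1 (1.61 ± 0.32, adjusted p = 0.00714), Fcna (2.31 ± 0.43, adjusted p = 0.00339) and Cd209f (3.12 ± 0.67, adjusted p = 0.0137). On PLX5622, 6 of 10 were higher, where 1.09% of all genes were. Mrc1 (3.80 ± 0.30, adjusted p = 1.1e-08), Stab1 (1.77 ± 0.12, adjusted p = 1.61e-09), Pf4 (3.34 ± 0.54, adjusted p = 0.000404) and F13a1 (2.02 ± 0.32, adjusted p = 0.000298) passed again, as did Cd209f (adjusted p = 0.00407) and Cbr2 (1.47 ± 0.36, adjusted p = 0.0465). The Cbr2 call was lost on leaving out any 1 of 17 of the 23 libraries (adjusted p up to 0.166, without replicate 4 of WT mice on PLX5622), with a replicate block (0.0949), with the compared groups alone (0.137) and on the variance-stabilised values (0.103). On PLX3397, F13a1 did not pass with the compared groups alone (adjusted p = 0.0541), nor Pf4 on the variance-stabilised values (adjusted p = 0.196). The Cd209f call on PLX3397 was lost without replicate 4 of G793A mice or replicate 2 or 4 of WT mice on PLX3397 (up to 0.0702), and Ms4a7 passed on PLX3397 without replicate 3 of G793A mice or replicate 1 of WT mice. Among the markers called, Pf4, Cd209f and Fcna entered the test only through groups other than WT mice on an inhibitor. With no filter, 6 of 10 markers passed on each inhibitor, of 150 genes called on PLX3397 and 176 on PLX5622. With the compared groups alone, 6 markers were tested, and 2 passed on PLX3397 (of 105 genes called) and 3 on PLX5622 (of 154). Libraries of the genotypes were apart, with G793A higher, for 7 of 10 markers on PLX3397 and 8 of 10 on PLX5622, against 3.78% and 2.49% of all genes.

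The effect of the inhibitor itself was compared between genotypes by an interaction term, the log2 fold change against own controls of G793A mice, less that of WT mice. For PLX3397 it was positive and passed for 6 of 10 markers, where 0.549% of all genes did. These were Mrc1 (3.39 ± 0.37, adjusted p = 1.54e-05), Stab1 (1.80 ± 0.17, adjusted p = 2.03e-06), Pf4 (2.89 ± 0.65), F13a1 (1.95 ± 0.43), Cd209f (3.70 ± 0.81) and Fcna (2.64 ± 0.59), the last 4 at an adjusted p between 0.0302 and 0.0387. Mrc1 and Stab1 kept the call in each of 23 omissions of 1 library. Pf4 lost it in 12 of them (adjusted p up to 0.135), F13a1 in 11 (up to 0.0844), Cd209f in 9 (up to 0.095) and Fcna in 10 of the 21 in which it was tested (up to 0.154). The PLX3397 term was also lost for Pf4 in limma-voom (adjusted p = 0.0528), with a replicate block (0.0974) and on the variance-stabilised values (1), for Cd209f with the compared groups alone (0.0713), and for Fcna in DESeq2 (0.162), without a filter (0.0703), with a replicate block (0.069) and with the compared groups alone (0.0993). For PLX5622 it passed for 5 of 10 markers, where 0.802% of all genes did, and these 5 held in each omission. They were Mrc1 (4.00 ± 0.38, adjusted p = 6.09e-07), Stab1 (2.07 ± 0.17, adjusted p = 1.34e-07), F13a1 (2.37 ± 0.43, adjusted p = 0.00246), Pf4 (3.33 ± 0.67, adjusted p = 0.00803) and Cd209f (adjusted p = 0.00755). On the variance-stabilised values Pf4 did not pass for PLX5622 (adjusted p = 0.167). With no filter, the term passed for 5 of 10 markers on each inhibitor, of 81 genes called for PLX3397 and 132 for PLX5622. Cd163 had the smallest terms, 0.71 ± 0.29 (adjusted p = 1) and 0.40 ± 0.29 (adjusted p = 0.744).

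**Figure D3:**
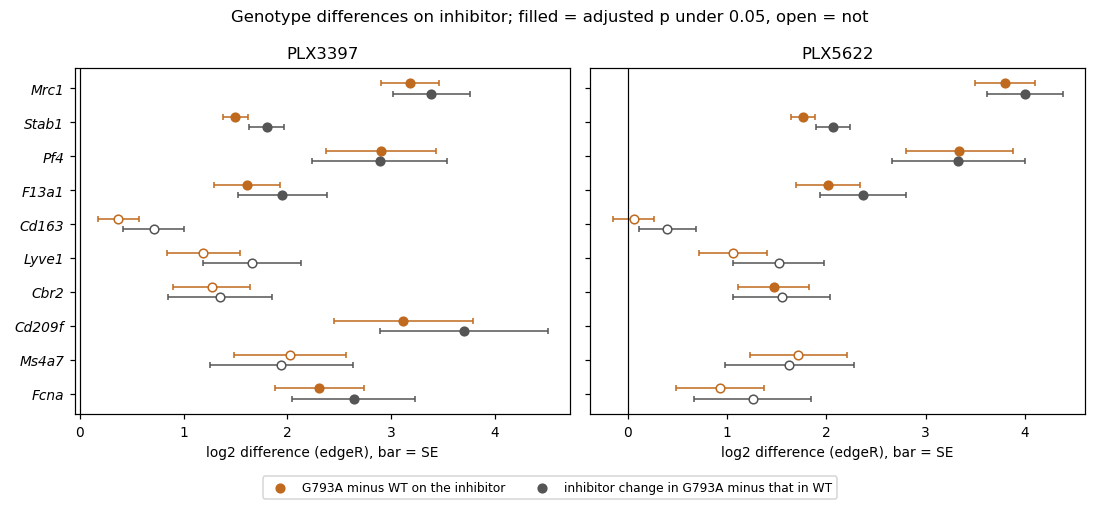
Log2 difference between G793A and WT mice on the same inhibitor, and between the inhibitor's effects in the 2 genotypes (horizontal axis, bar = SE, edgeR), for PLX3397 (left) and PLX5622 (right), filled where the adjusted p is under 0.05. Mrc1, Stab1, Pf4 and F13a1 are filled in both panels, Cd163 lies nearest 0, and Cd209f on PLX5622 is left out because it rests on 1 count.

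Other genes known from border-associated macrophages were listed beside the 10. Of 20, 16 were tested, and Cd209b, Cd209g, Ccl8 and Vsig4 were not. In WT mice on PLX3397, 9 of 16 were lower and 0 higher (median −1.21), where 1.49% of all genes were lower and 0.037% higher. Named by smallest p, they included Hpgd, a prostaglandin-inactivating enzyme (−1.39 ± 0.18, adjusted p = 1.45e-05), Siglec1, the sialic-acid receptor CD169 (−1.88 ± 0.32, adjusted p = 0.000671), and Ms4a6c (−2.01 ± 0.34, adjusted p = 0.000701). Clec4n, the gene of the fungal-wall lectin Dectin-2, had 0 counts in WT mice on PLX3397 (adjusted p = 0.00438). Its 95% interval, for counting error only, ran from 0% to 11.3% of the WT control rate. On PLX5622, 6 of 16 were lower (median −1.18), where 1.59% of all genes were. Among them were Hpgd (−1.67, adjusted p = 7.82e-07), Ms4a6d (−1.87, adjusted p = 0.000121), Ms4a6c (−1.63, adjusted p = 0.00515) and the galactose-type lectin gene Clec10a (−1.98, adjusted p = 0.00778). Clec4n and Clec10a stayed under 0.285 CPM in every library of WT mice on an inhibitor, at most 0.0551 and 0.229 CPM. They thus entered the test only through the other groups, as did Mgl2, Wfdc17 and Ccl24 of this list. This list was not recounted without a filter. Between genotypes, 2 of 16 were higher in G793A mice on PLX3397 (Hpgd and Ms4a6c), where 0.932% of all genes were. On PLX5622, 3 were higher (Hpgd, Ms4a6c and Ms4a6d), where 1.09% of all genes were. The transcription factor gene Maf, which many other brain cells express, stood at −0.07 ± 0.09 in WT mice on PLX3397 (adjusted p = 0.914). All 20 genes summed to 109 to 117 CPM in WT mice on PLX3397 and 109 to 123 CPM on PLX5622, against 120 to 126 CPM in WT controls. Igfbp4 was the largest part of that sum, with a mean of 52.8 CPM of 123 CPM in WT controls. It stood at 107% of its WT control mean in WT mice on PLX3397 and at 111% on PLX5622.

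Csf1r itself, made by microglia and border macrophages alike, averaged 74.4 ± 4.24 CPM in G793A mice on PLX3397 and 23.3 ± 5.12 CPM in WT mice on PLX3397 (SD, n = 4 each). On PLX5622 it averaged 71.6 ± 8.59 CPM in G793A mice and 12.2 ± 4.56 CPM in WT mice (SD, n = 4 each). On control chow it averaged 81.4 ± 4.69 CPM in G793A mice (SD, n = 4) and 93.8 ± 1.23 CPM in WT mice (SD, n = 3). At 19.9 CPM per kb in WT controls, Csf1r stood above each of the 10 markers. Csf1 and Il34, the ligand genes, passed in no comparison.

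Microglial genes moved with the markers. Of 12, 11 were lower in WT mice on PLX3397 (median −2.18) and 11 on PLX5622 (median −3.11), and the 12 summed to 84.8 to 116 CPM on PLX3397 and 53.2 to 94.7 CPM on PLX5622, against 333 to 359 CPM in WT controls. The 10 markers summed to 5.32 to 7.09 CPM in WT mice on PLX3397 and 5.41 to 6.83 CPM on PLX5622, against 26.7 to 30.7 CPM in WT controls. Stab1 was the largest part of that sum, with a mean of 15.5 CPM of 28.9 CPM in WT controls. In WT mice it was 3.59 CPM of 6.5 CPM on PLX3397 and 2.84 CPM of 6.02 CPM on PLX5622, with Cd163 next at 1.6 and 1.82 CPM. In G793A mice the markers summed to 17.4 to 19.7 CPM on PLX3397, 16.5 to 20.9 CPM on PLX5622 and 22.1 to 25.9 CPM on control chow. Of 5 red blood cell genes, 1 (Hba-a2, −2.18 ± 0.53, adjusted p = 0.0464) was lower in WT mice on PLX3397, and the list summed to 37.2 to 100 CPM there, against 173 to 306 CPM in WT controls. On PLX5622 that list summed to 98.8 to 298 CPM in WT mice and 0 of 5 passed. Of 12 genes of monocytes, neutrophils and dendritic cells, 10 were tested and 1 was lower in WT mice on PLX3397 (Cd209a, of the same family as Cd209f, −3.46 ± 0.69, adjusted p = 0.00438), while the median of the list was 0.15 and 3 of the 10 were below 0. S100a8 and S100a9, which neutrophils carry, averaged 1.91 ± 1.31 and 2.97 ± 2.20 CPM in WT mice on PLX3397 (SD, n = 4) and 0.117 ± 0.0299 and 0.141 ± 0.150 CPM in WT controls (SD, n = 3), and did not pass (adjusted p = 0.209 for S100a8 and 0.0916 for S100a9). The list summed to 23.8 to 31.8 CPM in WT mice on PLX3397 and 20.8 to 29.6 CPM on PLX5622, against 19.3 to 21.3 CPM in WT controls. Of 12 fibroblast genes of the meninges and vessels, where these macrophages live, 0 passed, and their sum averaged 327 ± 112 CPM in WT mice on PLX3397 and 284 ± 24.6 CPM on PLX5622 (SD, n = 4 each), against 265 ± 48.2 CPM in WT controls (SD, n = 3). Of 7 choroid plexus genes 0 passed, with sums of 370 to 604 CPM and 375 to 1110 CPM, against 437 to 745 CPM. The part of these lists in the marker changes was not tested. Without the 2 libraries with cerebellar or pituitary transcripts the counts of markers called in WT mice stayed at 9 on PLX3397 and 7 on PLX5622, those between genotypes at 6 on each inhibitor, and those of the interactions were 5 for PLX3397, where Cd209f had an adjusted p of 0.051, and 5 for PLX5622.

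**Figure D4:**
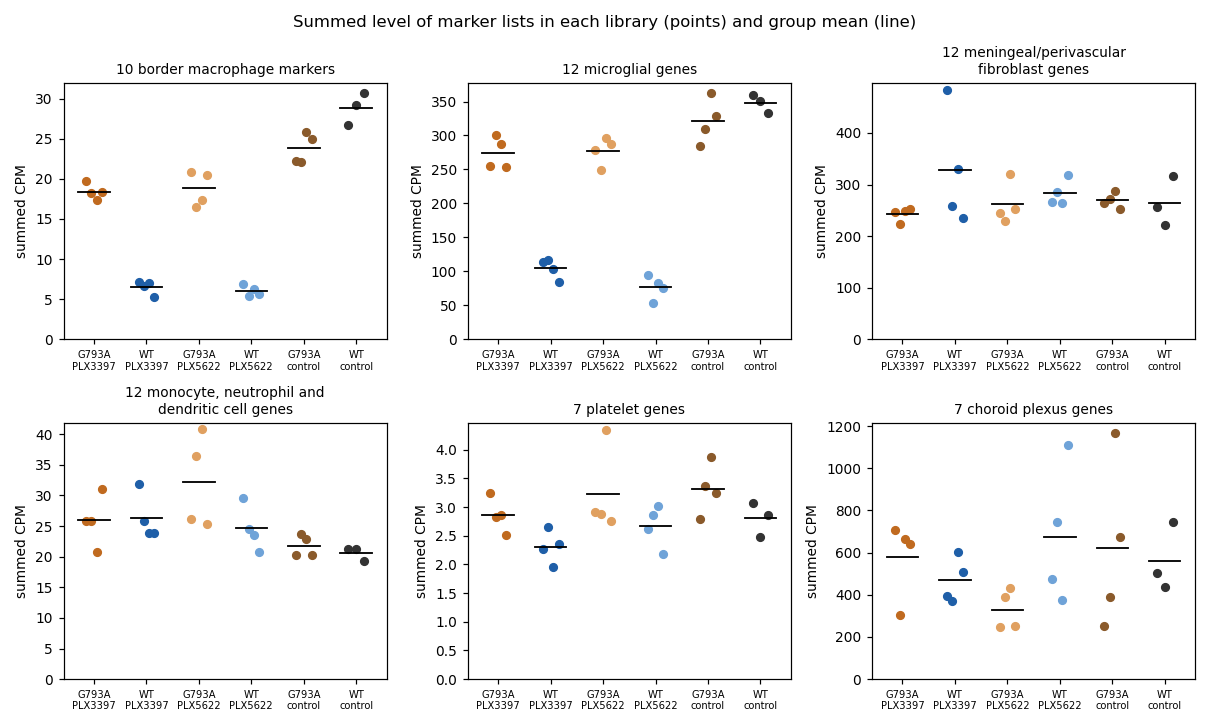
Summed level in CPM (vertical axis) of the 10 markers and of 5 lists of genes of other cell types in every library (points) of the 6 groups, with group mean (line). The markers, of whose sum Stab1 is the largest part, and the microglial genes are lowest in WT mice on an inhibitor. Fibroblast and choroid plexus sums overlap between groups.

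Genes with a like pattern were sought among 13884 tested genes that averaged 1 CPM or more and stood on none of the gene lists used here. The listed microglial genes, the other listed border macrophage genes and Csf1r could therefore not appear. Likeness was the root-mean-square distance from the markers' median profile over the 5 group differences from WT control, on log2(CPM + 0.1). That median profile was −0.60 in G793A mice on PLX3397, −1.83 in WT mice on PLX3397, −0.54 in G793A mice on PLX5622, −1.88 in WT mice on PLX5622 and −0.27 in G793A mice on control chow. The nearest 6 were Sash3 (distance 0.11), Tifab (0.13), Arhgap30 (0.15), Aif1 (0.16), Cd37 (0.17) and Ccl9 (0.18). Sash3, for example, stood at −0.49, −1.84, −0.42, −1.95 and −0.09 in the same order of groups.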

How the data were processed

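Mouse brain RNA was measured in 23 libraries, made with the TruSeq Stranded mRNA kit and oligo-dT, per the labels' protocols. The authors deposited expected counts (estimated counts per gene symbol, not scaled); 45.3% of values are not whole. They also deposited variance-stabilised values on a log2 scale, used only as an alternative. Per the submitters' processing notes, the tools were kallisto 0.46.1, FastQC 0.11.9 and DESeq2 1.26.0 on the build GRCm39; the step from transcripts to gene symbols was not stated. A row with a blank name (0.0118% of counts) was left out.

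Rounded counts went into edgeR 4.0.16 under R 4.3.3 (TMM factors, filterByExpr with minimum count 10 and minimum total count 15, robust quasi-likelihood fit of 6 groups over 23 libraries, common biological coefficient of variation 0.0998). The test was checked on simulated data in which only genes of higher count were changed, and only in WT mice on PLX3397. That check did not cover changes at counts as low as those of Pf4, Cd209f, Ms4a7 and Fcna. The SE is the fold change's size over the root of F. Intervals of count ratios are exact conditional 95% intervals and cover counting error only. Replicates differed beyond counting noise (chi-square per degree of freedom 5.89 to 74). Same-numbered libraries of different groups did not deviate together (median residual correlation 0.00555 over 55 pairs, 12 of them over 0.1; −0.00416 over 165 other pairs), so no pairing was assumed. Transcript lengths, of the longest coding transcript by symbol, come from an annotation of the build GRCm38 and served only for levels per length and a length trend (98% of tested genes matched); promoter windows come from RefSeq on GRCm38.p6.

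Members and gene lists were chosen with earlier results of these data known. The text gives every marker, and from the other list of border macrophage genes up to 4 genes past the threshold with the smallest p in each comparison of WT mice. Maf, Igfbp4, Mgl2, Wfdc17, Ccl24, Cd209a, S100a8 and S100a9 were named after their values were seen. Alternatives were RLE factors, testing unfiltered genes or those averaging 1 CPM, a plain quasi-likelihood fit, limma-voom (limma 3.58.1), DESeq2 1.42.0, a replicate block, the compared groups alone, limma on the log2 values and leaving out each library. Removing a length trend and leaving out the 2 libraries with cerebellar or pituitary transcripts were chosen after seeing the data.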

Additional observations from a re-analysis of the deposited data

Results flagged for a closer look

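In 50 groups of 4 libraries, 3 marker values lay far from the other 3 libraries of their group; chance gives about 5% of such groups. Cbr2 in replicate 3 of G793A mice on PLX5622 was 0.793 CPM, with the others at 0.652 to 0.671 CPM. Cd209f in replicate 1 of WT mice on PLX5622 was 0.0275 CPM, which is 1 count, with the others at 0; that library also held cerebellar and pituitary transcripts. Fcna in replicate 3 of G793A controls was 0.0985 CPM, with the others at 0.196 to 0.214 CPM.

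The inhibitor's effect differed between G793A and WT mice for 11 pairs of marker and inhibitor, by the edgeR interaction term (adjusted p over all genes). For PLX3397 the terms were 3.39 for Mrc1 (adjusted p = 1.54e-05), 1.80 for Stab1 (2.03e-06), 1.95 for F13a1 (0.0302), 3.70 for Cd209f (0.0302), 2.64 for Fcna (0.0371) and 2.89 for Pf4 (0.0387). For PLX5622 they were 4.00 for Mrc1 (6.09e-07), 2.07 for Stab1 (1.34e-07), 2.37 for F13a1 (0.00246), 3.33 for Pf4 (0.00803) and 5.0 for Cd209f (0.00755), a fitted value that rests on 1 count in WT mice.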

How the results depend on the processing

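The markers' lower levels in WT mice on an inhibitor kept their direction under every alternative run. The larger moves in the counts of markers called were as follows. A filter at a mean of 1 CPM left 4 markers to test. Of these, 3 were called in WT mice on PLX3397 (of 195 genes called) and on PLX5622 (of 216) against WT control. Between genotypes, 3 were called on PLX3397 (of 137) and on PLX5622 (of 143). For each interaction term 3 were called (of 84 genes for PLX3397 and 114 for PLX5622). With the compared groups alone, 6 markers were tested between genotypes, and 2 were called on PLX3397 (of 105 genes called) and 3 on PLX5622 (of 154). In WT mice against WT control, 9 were tested under that setting. Of these, 7 were called on PLX3397 (of 207 genes called) and 5 on PLX5622 (of 233). For the PLX3397 interaction, 10 were tested and 4 called (of 80 genes called). On the deposited variance-stabilised values, 7 markers were tested. In WT mice against WT control, 6 were called on PLX3397 (of 177 genes called) and 5 on PLX5622 (of 209). Between genotypes, 3 were called on PLX3397 (of 116) and 4 on PLX5622 (of 135). For each interaction 3 were called (of 58 genes for PLX3397 and 91 for PLX5622). Against WT control, DESeq2 called 2 markers in G793A mice on PLX3397 and 1 on PLX5622, and limma-voom called 1 in each. The first 3 of these alternatives tested fewer markers, except for the PLX3397 interaction with the compared groups alone. The cause of the other changes was not tested.

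Leaving out 1 library at a time gave 7 to 10 markers in WT mice on PLX3397, 6 to 8 on PLX5622, 0 to 1 in G793A mice on either inhibitor against WT control, 0 to 1 in G793A mice on PLX5622 against G793A control (with 0 to 980 of all genes), 0 in G793A controls against WT controls (with 0 to 375 of all genes), 5 to 7 between genotypes on PLX3397, 5 to 6 on PLX5622, 2 to 6 for the PLX3397 interaction and 5 for the PLX5622 one. Replicate numbers share only a number. With a replicate block the counts were 9 and 7 in WT mice on PLX3397 and PLX5622, 6 and 5 between genotypes, 4 and 5 for the interactions, and 0 in the other comparisons. Directions turned only for differences near 0. Pf4 in G793A controls against WT controls was 0.01 and became 0 in limma-voom, −0.19 with the length trend removed and −0.18 to 0.19 over omissions. Ms4a7 there was 0.09, −0.03 in limma-voom and −0.25 to 0.30 over omissions, and Cbr2 −0.20 to 0 over omissions. In G793A mice on PLX5622 against G793A controls, Lyve1 was −0.13 and became 0.04 without the libraries with cerebellar or pituitary transcripts (−0.25 to 0.05 over omissions), Fcna was −0.05 and became 0.02 with the length trend removed (−0.22 to 0.03), and Ms4a7 ran from −0.41 to 0.14. On PLX3397 against G793A controls, Cd163 ran from −0.23 to 0 and Cd209f from −0.59 to 0.05. Cd163 between genotypes on PLX5622 ran from −0.08 to 0.21. Counts of 1 to 13 per group limit Cd209f, Pf4, Ms4a7 and Fcna in WT mice on an inhibitor.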
